A study of Mus musculus with 12 samples.

Results

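The 4 libraries that carry replicate number 3 were set against the 8 libraries that carry number 1 or 2, out of 12 RNA-seq libraries in all. The cells were CGR8, a line of mouse embryonic stem cells, kept in serum with leukaemia inhibitory factor (LIF), and every group carried a stably transfected ppy-cagg-ires-puro vector. The vector was empty in the control group, encoded wild-type netrin-1 in the netrin-1 WT group, and encoded netrin-1 with point mutations that affect its interaction with a receptor in the unc5B MUT and neo1 MUT groups. Each of the 4 groups had 3 libraries, numbered 1, 2 and 3, so number 3 occurred exactly once per group and was balanced against the transgene. Members were chosen by the number alone. What the numbers mean (a culture, a day, a library preparation, a sequencing run or another way of counting the reads), and whether a group was 1 clone, is left unstated by the labels, so p-values here reflect only how these libraries vary, and that variation may be technical. Pou5f1, a marker of embryonic stem cells that encodes the pluripotency factor OCT4, lay between 967 and 1485 CPM (counts scaled to library size with trimmed-mean factors) in all 12 libraries. Other pluripotency genes differed in direction between the sets and are given below.

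As background, embryonic stem cells in serum and LIF depend on a cytokine pathway: LIF binds a receptor made with the signal transducer gp130 (gene Il6st), the transcription factor STAT3 is phosphorylated, and Socs3 is induced as the feedback inhibitor. A second signal, Nodal, acts through SMAD proteins to induce its own antagonists Lefty1 and Lefty2, and Skil. When amino acids run short or eIF2 alpha is phosphorylated, ATF4 induces amino acid transporters, tRNA synthetases and enzymes of serine and one-carbon metabolism. Mammalian genomes also hold many processed pseudogenes, intronless copies of mRNAs; where a copy is near identical to its parent, short reads do not tell them apart and a count is assigned by a rule of the counting program.

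The deposited table held estimated counts, not whole numbers, for 52661 genes. The number 3 libraries summed to between 22256195 and 24736421 counts and the others to between 32370919 and 59735737, without overlap. The most frequent non-zero value below 6 counts lay between 0.498 and 0.531 in the number 3 libraries and between 1.09 and 1.18 in the others, without overlap. No label or header says whether the number 3 columns were counted with other settings or scaled, and such a difference cannot be told apart from one between the cells in any fold change below. The 100 most abundant genes took 20.6% to 22% of counts against 16.9% to 19.4%. Further values bore on whether the number 3 libraries belong to their groups. Ddx3y, a Y-linked RNA helicase, was at 0.728, 0.443 and 0.367 CPM in neo1 MUT libraries 1, 2 and 3, and at 30.7 CPM or more in the libraries of the other groups. Ntn1, the gene encoded by the transgene, was at 0.779, 76.8, 34.9 and 56.4 CPM in the number 3 libraries of control, netrin-1 WT, then unc5B MUT and last neo1 MUT, so the empty-vector library was again the lowest, and at 9.10, 212 and 323 CPM (lowest, median, highest) in the other 8.

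The sets differed over a large part of the genes tested. In edgeR's quasi-likelihood test with the group as a block, 13338 of 22061 genes tested (60.5%) differed at a Benjamini-Hochberg adjusted p under 0.05. Of these, 6709 (30.4% of those tested) were higher and 6629 (30%) were lower in the number 3 libraries. A fitted difference of at least 2-fold was met by 7697 genes (34.9%), 3986 higher (18.1%) and 3711 lower (16.8%). All 4 number 3 libraries lay above all 8 others for 4549 genes (20.6%), and below all 8 for 3839 (17.4%). The median absolute log2 fold change over all genes was 0.75, against 0.21 for number 2 against number 1, a comparison in which 0 genes (0%) passed and 2566 (11.6%) had an unadjusted p under 0.05, while DESeq2 called 295. Among called genes, 12483 (93.6%) differed in the same direction in all 4 groups. A call rests on the mean of the same 4 differences, so it partly requires this agreement. The median log2 fold change of all genes was -0.06, and group medians are read against it. Counts of list members higher or lower are to be read against the 30.4% and 30% of all genes tested.

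How many genes were called depended little on scaling, but the balance of directions did. With library totals in place of trimmed-mean factors the split was 4255 higher and 10636 lower and the median moved by -0.47. With upper-quartile factors it was 5795 and 7835 with a shift of -0.15, and with no filter on low counts the shift was -0.14. With trimmed-mean factors taken only from protein-coding genes with 1 annotated transcript, an alternative chosen after seeing the data, it was 11381 and 2237 with a shift of 0.67. A test against a fold of 2 left 2793 higher and 1550 lower. All directions are given relative to the trimmed mean of all genes, and total RNA per cell was not measured.

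The largest fold differences were between a gene and its copies. Rpl13, a protein of the large ribosomal subunit at chr8:123102350-123105244 (plus strand, GRCm38), has a processed pseudogene, Gm12918 (ENSMUSG00000066315), at chr4:10848420-10849055 (plus strand) that equals its 636-base coding sequence at every base. Rpl27, of the same subunit, at chr11:101442298-101445529 (plus strand) likewise equals the pseudogene Gm11518 at chr11:94037218-94037628 (minus strand) over its whole 411-base coding sequence, of which bases 1 to 150 are shown, from the GENCODE M21 transcripts, since a read from here cannot tell the copies apart.
Rpl27: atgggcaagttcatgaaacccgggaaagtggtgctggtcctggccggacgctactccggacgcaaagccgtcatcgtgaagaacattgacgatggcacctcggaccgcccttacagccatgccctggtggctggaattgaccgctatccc
Gm11518: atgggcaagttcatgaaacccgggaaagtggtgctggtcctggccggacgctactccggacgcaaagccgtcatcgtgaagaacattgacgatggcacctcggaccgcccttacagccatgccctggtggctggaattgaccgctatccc

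The counts of these families lay on different copies in the 2 sets of libraries. Rpl13 had 393, 325, 402 and 381 CPM in the number 3 libraries of the control, netrin-1 WT, unc5B MUT and, last, neo1 MUT groups, the order used throughout, and 1718, 1913 and 1964 CPM (lowest, median and highest) in the other 8. Gm12918 had 1167, 1295, 1498 and 1527 CPM in the number 3 libraries and 0 in each of the other 8, which is at least 163830-fold higher against a floor of 3 counts over those 8 libraries. Neither gene overlapped between the sets. Summed over the 7 genes of the family, the level was 1764 against 1876 CPM, a log2 difference of -0.09 ± 0.08 (SE, edgeR adjusted p = 0.31).

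In the Rpl27 family the coding gene was the higher one. Rpl27 itself had 654, 385, 543 and 539 CPM in the number 3 libraries and 72.7, 95.1 and 115 in the other 8. The copy Rpl27-ps3 had 0, 0, 0.109 and 0.157 CPM against 569.6, 589 and 651, and Gm11518 had 126, 163, 175 and 203 CPM against 0 in each of the 8. The counts thus sat on Rpl27-ps3 in numbers 1 and 2 and on Rpl27 and Gm11518 in number 3, while the sum was 702 against 691 CPM (log2 difference 0.01 ± 0.08, adjusted p = 0.9). Rps12, of the small ribosomal subunit, shares all 399 bases of its coding sequence with Rps12l1 and Rps12-ps3. Rps12l1 had 393, 346, 429 and 464 CPM against 0, Rps12-ps3 had 476, 326, 457 and 503 against 1028, 1089 and 1230.5, and the family sum differed by -0.27 ± 0.08 (adjusted p = 0.009).

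**Figure D1:**
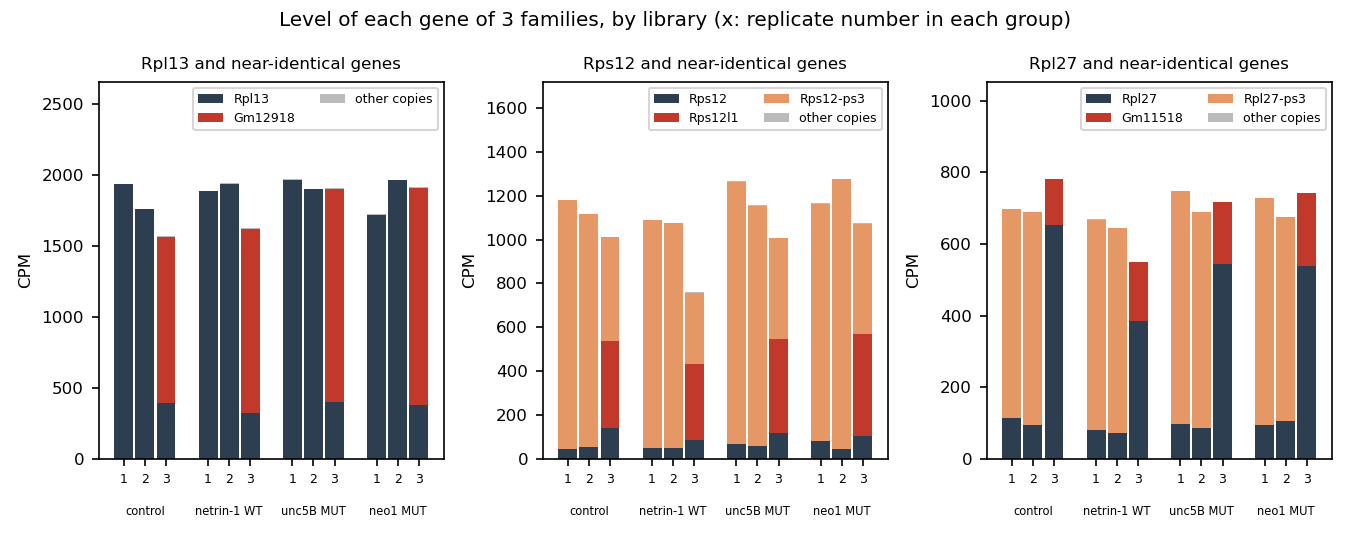
Stacked bars give the CPM of the members of the Rpl13, Rps12 and Rpl27 families in each of the 12 libraries. Libraries are ordered by group and, within each group, by replicate number. The bar heights are close for Rpl13 and Rpl27, at 1764 against 1876 and 702 against 691 CPM on average in the number 3 and the other libraries, while the member that holds the counts changes.

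Other families repeated the pattern. Rpl17, a large-subunit protein, was the ribosomal protein gene with the lowest fold change, at 93.9, 159, 149.6 and 179 CPM against 676, 746 and 864 (log2 fold change -2.38 ± 0.13, adjusted p = 2.6e-08). Its pseudogene Rpl17-ps8 had 471, 313, 388 and 433 CPM against 0.111, 0.491 and 1.09, and the family sum differed by 0.10 ± 0.09 (adjusted p = 0.35). Rpl38-ps2, a copy of Rpl38, had 142, 128, 152 and 169.8 CPM against 0, and Gm10052, a copy of the splicing regulator Hnrnpa1, had 254, 260.4, 251 and 225 against 0. The Rpl38 sum differed by 0.16 ± 0.08 (adjusted p = 0.1), and the Hnrnpa1 sum stayed lower, by -0.40 ± 0.07. Not every family closed on summing. Hmga1b, a near-identical copy of the chromatin protein gene Hmga1, had 3622, 2954, 3764 and 4432 CPM against 238, 262 and 282, and the sum with Hmga1 was 4023 against 413 CPM, 3.27 ± 0.09 higher on the log2 scale.

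Over the whole table, 2056 families joined 6127 genes that shared at least 50% of the 50-base words of the smaller gene with another. Of 2789 family members tested, 69.2% differed and 49.2% differed at least 2-fold, with a median absolute log2 fold change of 1.1. After summing, 64.4% of 1349 families differed and 28.9% differed at least 2-fold, with a median of 0.61, and the 19272 genes in no family gave 59.2%, 32.8% and 0.72. In 394 families with a coding gene and a processed pseudogene tested, the pseudogene was higher in 304 and lower in 31. Over all 1733 processed pseudogenes tested, 59.9% were higher and 14.4% lower. Of the 1733, 156 passed the filter on low counts through number 3 alone and could only come out higher. The split and the median of the pseudogenes may thus follow in part from the filter. The coding gene was lower in 118 of the families in which the pseudogene was higher, and it was higher in nearly as many of them. Over all 394 families the median log2 fold change of the coding gene was 0.00101. A lower coding gene beside a higher pseudogene was thus not the general case. Median absolute log2 fold changes were 4.56 for the pseudogene, 0.61 for the coding gene and 0.48 for the sum. Of the 79 cytosolic ribosomal protein genes, 40 were higher and 22 lower, with fold changes from -2.38 to 2.79, and with each gene's family summed 52 were higher and 6 lower, from -0.79 to 2.80, with all 17 differences of at least 2-fold upward.

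Gene classes separated in the shares of counts as well. Processed pseudogenes took 3.92% to 4.28% of counts in the number 3 libraries and 2.08% to 2.41% in the others. Long noncoding RNAs took 1.01% to 1.13% against 1.38% to 1.73%, other pseudogenes 0.179% to 0.193% against 0.211% to 0.369%, and small and ribosomal RNAs 0.111% to 0.191% against 0.367% to 1.42%. Mitochondrial mRNAs took 1.496% to 1.98% against 2.13% to 3.82%, and mitochondrial rRNAs and tRNAs 0.0456% to 0.0645% against 0.0818% to 0.168%. None of these 6 classes overlapped, and each reached p = 0.0123, the smallest a two-sided exact permutation test over the 81 arrangements within groups can give (adjusted p = 0.0159). Protein-coding genes took 92.0% to 92.5% against 89.5% to 92.8% and overlapped (exact permutation p = 0.222). Genes whose type the annotation leaves to be settled also overlapped, at 0.432% to 0.492% against 0.452% to 0.620% (exact permutation p = 0.037, adjusted p = 0.0417). With control replicate 3 or unc5B MUT replicate 3 left out, 27 arrangements remain, the exact permutation test gives no p under 0.037, and no class passed after adjustment. The call for small and ribosomal RNA was also lost without control replicate 1 or 2 or any of the 3 netrin-1 WT libraries, with an adjusted p of 0.0625 to 0.125 in the exact permutation test.

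**Figure D2:**
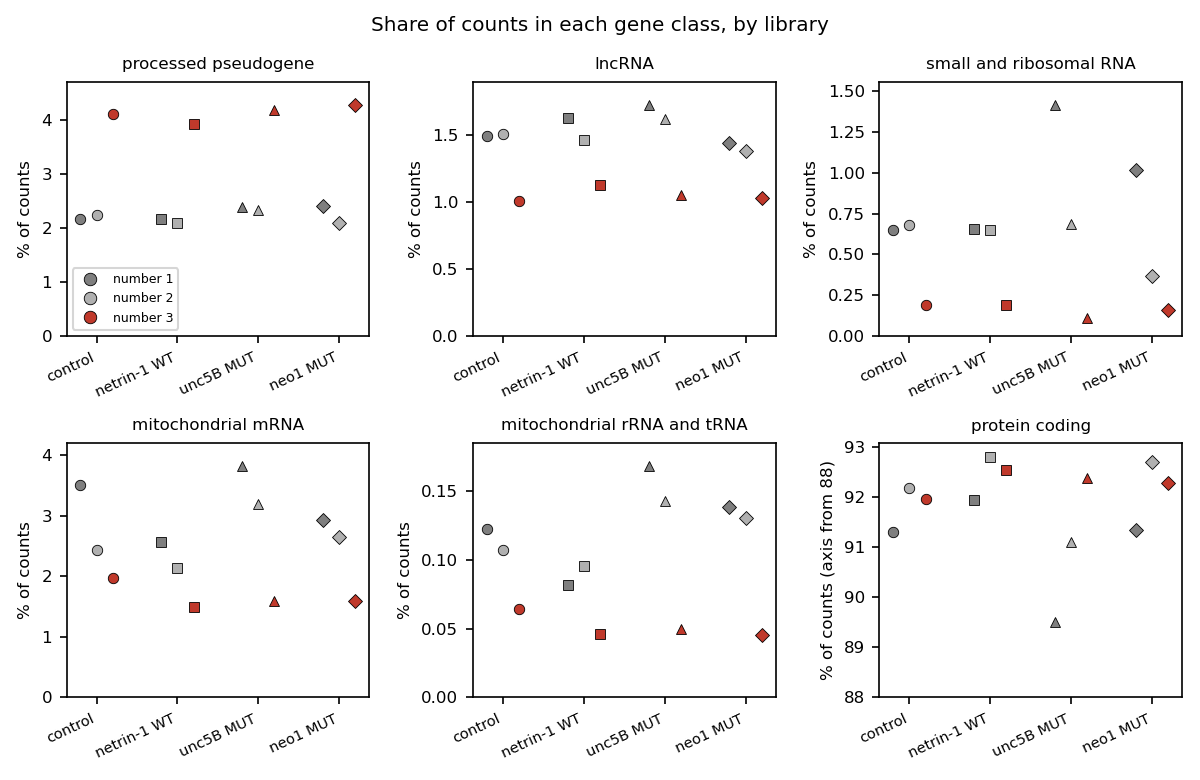
Each panel gives the percent of a library's counts in a gene class, with a point for each library, colour for replicate number and shape for group, and the axis of the protein-coding panel starts at 88%. Of the 6 classes drawn, the 4 number 3 points stand apart in every one but protein coding, above the others for processed pseudogenes (3.92% to 4.28%) and below for the noncoding and mitochondrial classes.

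Counts of genes gave another side of the same classes. Processed pseudogenes were higher in 59.9% and lower in 14.4% of 1733 tested (median log2 fold change 1.79). Of these, 156 were under 0.1 CPM in the 8 and at 1 CPM or more in the 4, and so passed the filter through number 3 alone. By the share of 50-base words that a pseudogene holds in common with another gene, 17.8% were higher and 47.5% lower where no word was shared (median -1.04), against 51.6% and 17.2% where up to 10% were shared (1.23), 70.3% and 7.69% at 10% to 50% (2.89), 58.2% and 14.6% at 50% to under 100% (1.65), and 72.3% and 10.2% where all were (2.32). The share higher thus did not follow the bins in order beyond 50%. Of 2819 long noncoding RNAs 16.1% were higher and 38.2% lower (median -0.61, and -0.10 with the offset by transcript number and GC content described with the gene features), and protein-coding genes were even, at 29.8% and 29.6% of 15734 (-0.03). A sharper asymmetry was in genes present in only 1 set: 103 genes were at 0 in all 8 libraries and at 1 CPM or more in all 4, among them 63 processed pseudogenes and 20 small or ribosomal RNAs, while 2 genes were at 0 in the 4 and at 1 CPM or more in the 8. One of these 2, Gm47025, a 431-base gene whose type the annotation leaves to be settled at chr10:102431908-102432338 (minus strand), had 12.5, 37.8 and 65.9 CPM in the 8, at least 914-fold more than a floor of 3 counts over the 4.

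Small RNAs differed in direction between members, which the class shares hide. By number of genes, 74.0% of 323 small and ribosomal RNA genes were higher in number 3 (median 3.80), including 81.02% of 137 microRNA genes and 71.6% of 116 snoRNA genes, yet the share of counts in the class was lower. Of the 323, 43 were under 0.1 CPM in the 8 others and at 1 CPM or more in the 4. These passed the filter on low counts through number 3 alone, so the percent higher and the median follow in part from the filter. The share of counts was carried by a few abundant members. CT010467.1, annotated as ribosomal RNA, had 476 ± 52.5 CPM (mean ± SD, n = 4) in number 3 and 6000.1 ± 2838 CPM (n = 8) in the others, a log2 fold change of -3.60 ± 0.35 (edgeR adjusted p = 3.0e-06). Rn7s1, the RNA of the signal recognition particle, had 2.50, 2.66, 2.28 and 1.99 CPM against 18.5, 26.0 and 47.9, with no overlap (-3.52 ± 0.25, adjusted p = 2.7e-07). Snora73b, a box H/ACA small nucleolar RNA, was the other way round, at 12.4, 14.7, 18.6 and 12.2 CPM against 0.0522, 0.139 and 0.311 (6.58 ± 0.34, adjusted p = 1.3e-08). Without the 100 most abundant genes the share of small and ribosomal RNA was 0.022 percentage points higher in number 3, the opposite direction.

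Mitochondrial transcripts split in the same way. The ribosomal RNAs were lower, mt-Rnr2 at 171 ± 13.2 CPM in number 3 and 646 ± 183 in the others (-1.86 ± 0.16) and mt-Rnr1 at 179 ± 58.6 against 434 ± 95.8 (-1.30 ± 0.15). Of 21 mitochondrial tRNAs 19 were higher and 0 lower, with mt-Ts1 at 129 ± 21.7 against 8.005 ± 5.27 CPM. Among the 13 mRNAs, 7 were lower and 2 higher (median -0.47). With the offset, 1 was lower and 10 were higher (0.53). The offset was estimated from nuclear protein-coding genes and moves all genes of a bin by the same amount. The change of sign, for the list and for its members, follows from that shift. Nothing about mitochondrial mRNAs is read from it. mt-Co1, a core subunit of cytochrome oxidase, had 8204, 5043, 6372 and 6422 CPM against 6551, 8084 and 13092 (-0.48 ± 0.14, adjusted p = 0.012), a call lost without the unc5B MUT library numbered 3 and reversed to 0.53 with the offset. mt-Atp8, an ATP synthase subunit, was higher at 1279.8, 930.3, 1122 and 1029 CPM against 190.2, 279.9 and 404 (1.96 ± 0.16, adjusted p = 7.6e-07).

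Replication-dependent histone genes, whose mRNAs end in a stem-loop and carry no poly(A) tail, were lower in 32 and higher in 7 of 54 tested (median -1.33), and in 18 and 8 with the offset (-0.77). Hist1h2ah and Hist1h2ap, which encode histone H2A, had the lowest fold changes of any coding gene under the naming rule. Hist1h2ah had 0.0557, 0.0968, 0 and 0.105 CPM against 117, 151 and 199.7 (-11.10 ± 0.27, adjusted p = 2.7e-11), and Hist1h2ap had 0.223, 0.145, 0.326 and 0.367 against 187, 205 and 278 (-9.66 ± 0.17). H2A genes are near identical, but here the sum did not close: the 14 genes of the family gave 4.54 against 388 CPM, -6.42 ± 0.13 on the log2 scale. The labels do not state whether poly(A) selection or rRNA removal was used, and the part of library type in these differences was not tested.

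Among protein-coding genes the difference followed a property of the annotation. Genes with 1 annotated transcript were higher in 9.97% and lower in 49.4% of 1855 cases (median log2 fold change -0.65). Higher genes made up 12.2%, 21.2% and 35.5% for 2, 3 to 4 and 5 to 8 transcripts and 56.1% for more than 8, where 14.7% of 2926 were lower (median 0.51). The medians in the 4 groups, in the same order, were -0.70, -0.50, -0.57 and -0.60 for 1 transcript and 0.49, 0.53, 0.51 and 0.52 for more than 8. Between numbers 2 and 1 the same bins had medians between -0.01 and 0.03. Across 15734 genes, which are not independent replicates, Spearman's rank correlation with transcript number was 0.37 for number 3 and -0.05 for number 2 against 1; all points come from the same libraries. Transcript number was added as a feature after the data were seen.

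GC content ranked genes as well, and so did expression level in part. Coding genes under 40% GC in their exons were higher in 16.7% and lower in 50.7% (median -0.54), and those of 55% to 60% GC were higher in 40.1% and lower in 17.6% (0.25), with 34.2% and 25.7% above 60% (0.06). By mean level over all 12 libraries, coding genes under 1 CPM were higher in 10.6% and lower in 27.5% (-0.46), while in the bin of highest level, of 74 genes, 71.6% were higher and 9.46% lower (0.95). This mean includes the number 3 libraries, so a gene higher there is moved towards the upper bins. The trend with level is therefore partly built in. Genes under 0.5 kb of exon, of all classes, were higher in 61.4% and lower in 16.2% of 1375 (2.51). Only 100 of them were coding, and of these 42% were higher and 32% lower (0.62), so length is not separated from gene class here. Chromosome 18 stood apart from the other chromosomes: 11.0% of its 383 coding genes were higher and 53.8% lower (-0.55), with medians between -0.54 and -0.48 in the 4 groups, and the median was -0.42 with the offset. The next lowest coding median was -0.26, on chromosome 19.

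**Figure D3:**
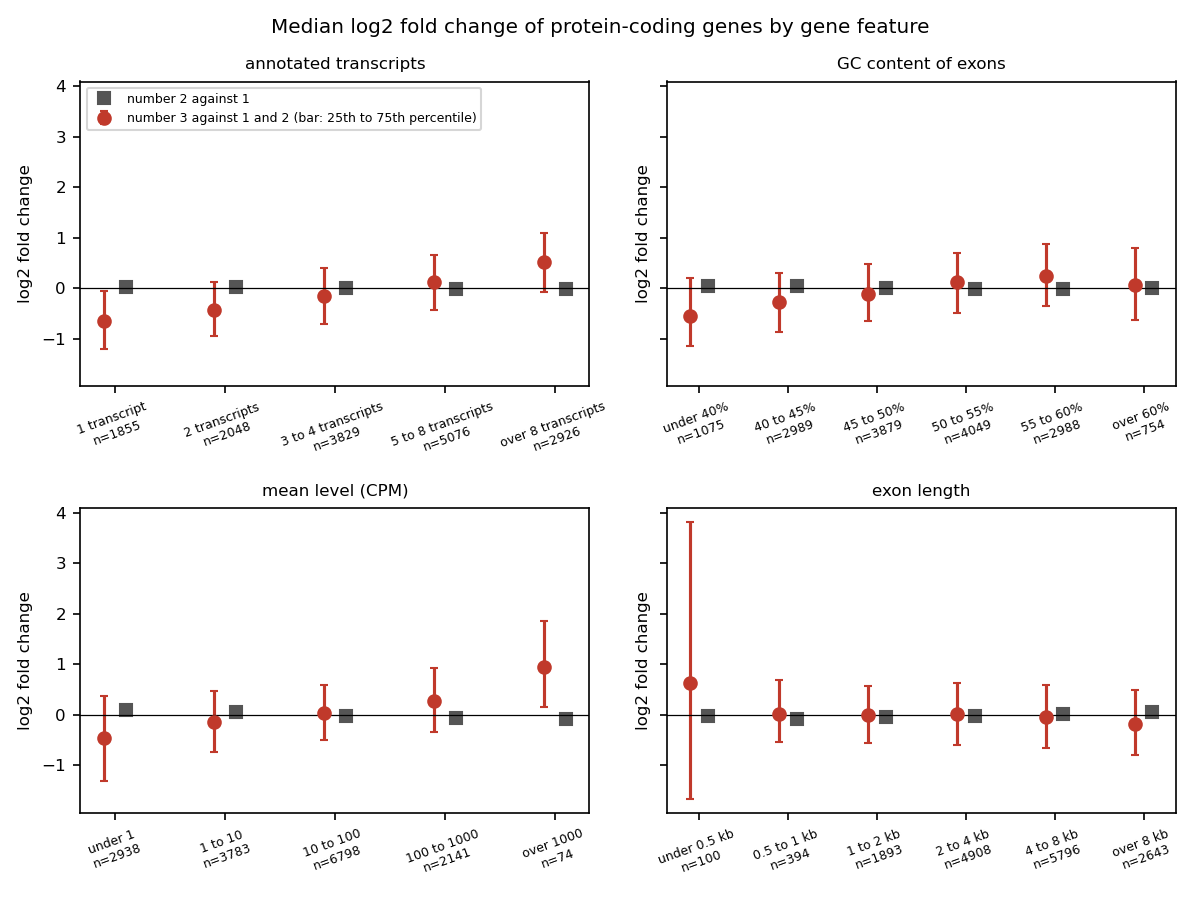
Points give the median log2 fold change of protein-coding genes (number 3 against numbers 1 and 2) in bins of annotated transcripts, exon GC content, mean CPM and exon length, with bars for the quartiles and grey squares for number 2 against number 1. The medians run from -0.65 to 0.51 over transcript number, while the grey squares stay near 0.

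Since gene lists differ in transcript number and GC content, the lists are given with a second fit, chosen after the data were seen, in which every number 3 library carries an offset by bin of transcript number and GC content. The offset is estimated from the protein-coding genes of the same contrast, so bin medians are near 0 by construction and nothing is read from them. It left 6836 genes higher (31%) and 4827 lower (21.9%). The genes named are, by rule, the 12 coding genes each way with the largest difference and no overlap, 5 each way of other classes, up to 4 of the most abundant members of each list, and a few fixed genes. The other genes named in the pathway paragraphs, Stat3, Bcl3, Klf4, Lefty1, Nodal, Sox3, Zic2, Atf4, Aldh18a1, Cars, Lama5, Lamb2, Sycp1, Mael, Adm, Il17rd, Spred1, Tet2, Col1a1 and Twist1, and those of the preceding paragraphs outside the rule, Rpl13, Rpl27, Rps12, Rps12-ps3, Rpl17-ps8, Hmga1b, CT010467.1, mt-Rnr1, mt-Rnr2, mt-Ts1 and mt-Atp8, were chosen after their values were seen.

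Members of the LIF and STAT3 list were more often higher than lower. Of 15 members, 8 were higher and 3 lower (median 0.42), and with the offset 10 and 1 (0.67). Socs3 had 517, 450.1, 490.0 and 601 CPM in the number 3 libraries and 25.2, 31.4 and 42.7 in the other 8, with no overlap (4.03 ± 0.13, adjusted p = 2.6e-10; 3.93 with the offset). Stat3 had 274, 301, 297 and 314 CPM against 51.7, 66.9 and 79.4 (2.16 ± 0.09, adjusted p = 2.2e-09), and Il6st had 434, 261, 288 and 515 against 81.3, 88.4 and 100.5 (2.03 ± 0.14, adjusted p = 1.4e-07). Both sets were apart, with the spread among number 3 libraries wide for Il6st and narrow for Stat3. Bcl3, an IkB-family cofactor, had 61.2, 108, 125 and 92.4 CPM against 8.89, 16.3 and 26.4 (2.54 ± 0.25), and Klf4, a naive pluripotency factor, 104, 175, 125 and 137 against 39.2, 66.9 and 87.7 (1.05 ± 0.16); neither overlapped. The STAT3 target Tfcp2l1 was lower, at 159.9, 157, 151 and 152 CPM against 219.5, 235 and 276 (-0.65 ± 0.08, adjusted p = 2.1e-05), but did not pass with the offset (-0.16), and its sign was reversed with factors from 1-transcript genes (0.03). With library totals the median of the list was -0.04, against -0.53 for all genes.

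Nodal targets were lower as a group. None of the 10 tested was higher and 7 were lower (median -0.96), and with the offset 0 and 8 (-1.40). Lefty2, a Nodal antagonist, had 6.96, 3.05, 11.5 and 2.99 CPM against 18.5, 63.2 and 77.1 (-3.34 ± 0.33, adjusted p = 3.7e-06). Skil, a repressor of SMAD signalling, had 42.5, 47.7, 35.1 and 52.3 CPM against 109.5, 167 and 297 (-2.0 ± 0.17, adjusted p = 1.3e-06). All 4 number 3 values lay below all 8 others for both genes, with the netrin-1 WT and neo1 MUT libraries lowest for Lefty2. The ligand gene Nodal had 23.9, 32.5, 30.9 and 29.1 CPM against 42.4, 59.5 and 73.2 (-0.99 ± 0.14), with no overlap, while Lefty1 (-1.92 ± 0.22) overlapped and the coreceptor Tdgf1 did not pass (606, 399, 459 and 454 against 178, 436 and 492 CPM). In these bulk samples, fewer cells that express a gene and less of its RNA per cell cannot be told apart.

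Genes of formative and primed pluripotency, the state after naive pluripotency, were lower in 7 and higher in 2 of 12 (median -1.09; 9 and 0 with the offset). Sox3, a SoxB1 factor, had 0.278, 0.678, 0.272 and 0.472 CPM against 2.55, 4.04 and 6.60 (-3.29 ± 0.35), and Zic2 had 11.1, 14.7, 21.9 and 15.2 against 20.9, 49.1 and 58.5 (-1.46 ± 0.20). Dnmt3b, a de novo DNA methyltransferase, had 144, 119, 192 and 102 against 146, 199 and 245 (-0.52 ± 0.10, adjusted p = 0.00053), with its sign reversed to 0.15 with factors from 1-transcript genes. Etv4, an ERK-responsive factor, went the other way at 178, 256.2, 212 and 258 CPM against 119, 133 and 165 (0.71 ± 0.10), but its sign was reversed to -0.22 with the offset. The ERK response list as a whole had 2 higher and 8 lower of 14 (median -0.47; 1 and 6 with the offset), led by the feedback inhibitors Il17rd at 29.8, 20.9, 27.3 and 32.3 CPM against 63.2, 72.4 and 92.2 (-1.46 ± 0.10) and Spred1 at 36.6, 34.0, 36.1 and 44.3 against 94.2, 98.5 and 113 (-1.42 ± 0.08).

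**Figure D4:**
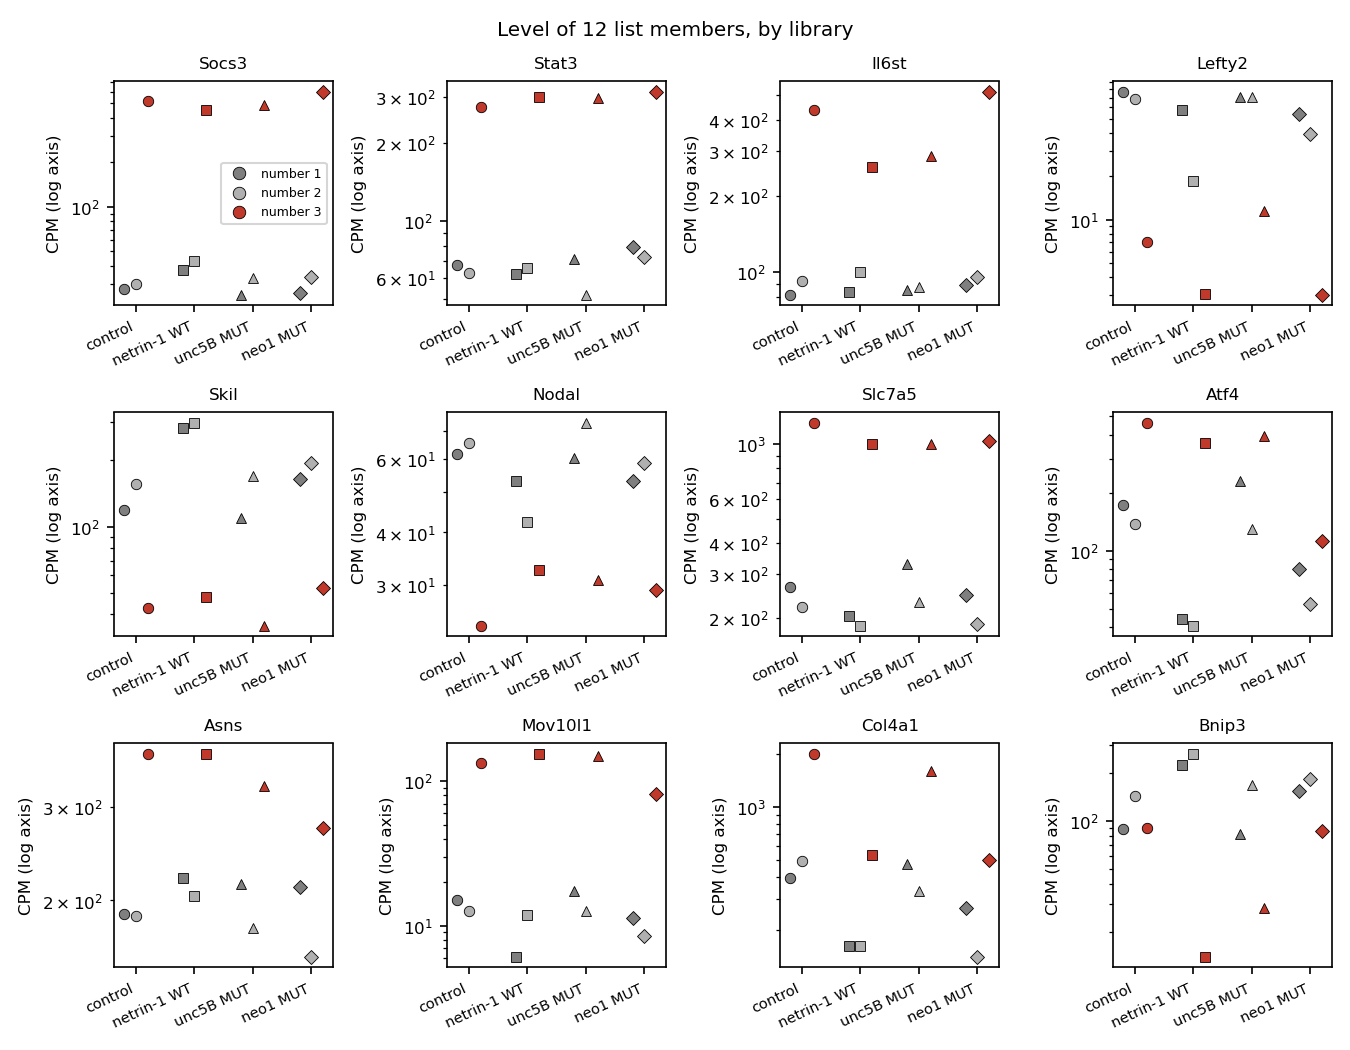
Each panel gives the CPM of 1 gene in the 12 libraries on a log axis, with colour for replicate number and shape and position for group. Socs3, Stat3, Il6st, Slc7a5, Asns, Mov10l1 and Col4a1 have their 4 number 3 points above the other 8 and Lefty2, Skil and Nodal below, while Atf4 and Bnip3 overlap.

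Genes of amino acid supply were mostly higher. The integrated stress response list, targets of the factor ATF4, had 17 higher and 3 lower of 23 gene IDs (median 0.94; 15 and 1, 0.77, with the offset), Ddit3 being present under 2 IDs. Slc3a2 and Slc7a5 encode the heavy and light chain of an amino acid exchanger. Slc3a2 had 1753, 1145, 1216 and 979.9 CPM against 168, 192 and 237 (2.69 ± 0.13, adjusted p = 8.0e-09), and Slc7a5 had 1221, 1006, 1006 and 1026 against 185, 226 and 329 (2.20 ± 0.12, adjusted p = 2.0e-08). Asns, asparagine synthetase, had 377, 376, 328 and 273 against 157, 196 and 221 (0.79 ± 0.10). All 3 were separated. Atf4 itself had 463, 363, 395 and 113 CPM against 40.4, 104 and 229 (1.72 ± 0.30, adjusted p = 0.00043) and overlapped through its neo1 MUT library, and Aldh18a1, of proline synthesis, had 183, 151, 156 and 129 against 31.4, 36.7 and 53.6 (1.99 ± 0.10).

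Aminoacyl-tRNA synthetases, which charge tRNAs with amino acids, were higher in 14 and lower in 3 of 20 (median 0.69; 13 and 4 with the offset). Vars, for valine, had 1277, 1437, 1435 and 1193 CPM against 168, 287 and 328 (2.27 ± 0.14, 1.33 with the offset), and Cars, for cysteine, 476, 367, 397 and 362 against 52.3, 79.5 and 93.98 (2.45 ± 0.11, 1.74). Eprs, for glutamate and proline, did not pass, at 405, 356, 373 and 287 against 351, 381 and 394 CPM (-0.09 ± 0.08). Serine and one-carbon enzymes were higher in 8 and lower in 1 of 11 (median 0.66; 7 and 1, 0.31, with the offset). Mthfd1, a folate enzyme, had 929, 922, 985 and 977 CPM against 311, 331 and 377 (1.49 ± 0.07).

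Extracellular matrix genes were higher in 13 and lower in 3 of 21 (median 0.68), and in 8 and 3 with the offset (0.24). Hspg2, the basement membrane proteoglycan perlecan, had 912, 1022, 1008 and 1331 CPM against 289, 366 and 472 (1.56 ± 0.11), Lama5 had 619, 569.7, 572 and 633 against 128, 192 and 255.6 (1.63 ± 0.12), and Lamb2 74.5, 87.7, 137 and 108 against 18.8, 22.8 and 29.7 (2.06 ± 0.16), all without overlap. Col4a1, a collagen of basement membranes, had 2006, 532, 1603 and 498 CPM against 140.4, 300.4 and 496 (1.80 ± 0.17), with the control and unc5B MUT libraries highest and the neo1 MUT library just above the highest of the 8. Col4a1 also marks primitive endoderm, a list with 5 higher and 4 lower of 20 (median -0.13), with 2 and 5 with the offset and a median between -0.36 and 0.08 when 1 library was left out, and whose summed level was 1632 to 5636 CPM in number 3 and 1154 to 3250 CPM in the others. Of 14 fibroblast markers, 8 were tested, 3 of them higher and 2 lower. Their summed level was 1886 to 3321 CPM in number 3 and 958 to 1376 in the others, without overlap. Most of it came from Fn1, fibronectin, which embryonic stem cell cultures also express, at 1644, 1791, 1910.1 and 3137 CPM against 706, 955 and 1162. Col1a1, a fibrillar collagen, had 5.34, 3.58, 1.41 and 2.51 CPM against 1.07, 1.69 and 2.09 (0.90 ± 0.28), Twist1 0.835, 1.5, 0.707 and 0.262 against 0.496, 1.85 and 3.05 (-1.11 ± 0.34), and no marker was at 0 in all 12 libraries. The part of other cell types in the matrix difference was not tested.

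Germ-cell genes that DNA methylation keeps silent in most cells had 6 higher and 0 lower of 16 (median 0.82), and 15 and 0 with the offset (1.13). The 6 are 37.5% of the list, near the 30.4% higher over all genes tested. The median was 0.21, with 5 higher, without netrin-1 WT replicate 3, and 0.99, with 10 higher, without control replicate 3. Mov10l1, a piRNA helicase, had 134, 155, 148 and 81.5 CPM against 6.05, 12.2 and 17.3, with no overlap (3.45 ± 0.20, adjusted p = 3.2e-08). Sycp1, of the synaptonemal complex, had 17.98, 24.1, 17.2 and 16.7 against 4.10, 5.89 and 7.65 (1.72 ± 0.13), and Mael, of the piRNA pathway, 21.7, 24.6, 16.3 and 15.3 against 5.26, 9.09 and 12.5 (1.19 ± 0.22). Dazl, a germ-cell RNA-binding protein, did not pass, at 36.3, 85.8, 43.8 and 20.1 CPM against 11.7, 29.2 and 52.6 (0.55 ± 0.26, adjusted p = 0.086). The median of the list was 1.91 in the netrin-1 WT group and 0.17, 0.16 and 0.55 in the control, unc5B MUT and neo1 MUT groups, a difference that was not tested.

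Pluripotency genes themselves were mixed. Naive genes had 6 higher and 7 lower of 20 (median -0.24), and core genes 3 and 5 of 11 (-0.23). With the offset they had 7 and 5 (-0.09) and 3 and 3 (-0.14), and with 1 library left out the medians ran from -0.34 to -0.04 and from -0.42 to -0.06. Pou5f1 had 1394, 1280.0, 1473 and 1485 CPM against 967, 1103 and 1321 (0.30 ± 0.09, adjusted p = 0.014), a call lost without the neo1 MUT library numbered 3 and a sign reversed with library totals (-0.16) and with the offset (-0.14). Sox2 had 233, 316, 273 and 289.6 against 366, 405 and 738 (-0.71 ± 0.10; -0.14 with the offset, where it did not pass). Nanog did not pass (-0.03 ± 0.30, adjusted p = 0.93), and its 127, 440.4, 158 and 128 CPM spanned more than the 104, 195 and 269.7 of the others. Trim28, a corepressor, had 3042, 3310.3, 3676 and 3174 CPM against 626, 897 and 1269 (1.87 ± 0.14), and Tet2, an enzyme of DNA demethylation, was lower at 87.1, 90.1, 109.7 and 91.2 against 178, 202 and 243 (-1.15 ± 0.09), both without overlap.

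Markers of other fates differed in direction from gene to gene. Neuroectoderm genes had 0 higher and 4 lower of 8 tested (median -0.85), with Sox1 at 4.84, 7.84, 11.3 and 17.1 CPM against 22, 33.6 and 38.2 (-1.73 ± 0.23). Mesendoderm genes had 0 and 2 of 8 (-0.60; 0 and 4 without control replicate 3), with Eomes at 4.56, 4.40, 3.59 and 5.45 against 9.95, 14.1 and 17.5 (-1.61 ± 0.15). Trophectoderm genes had 3 and 1 of 11, with a median of -0.13 that ran from -0.27 to 0.26 when 1 library was left out and so had no stable sign, with Gata3 at 22.1, 22.1, 13.0 and 7.60 against 0.822, 2.41 and 4.79 (2.63 ± 0.24) and Tfap2c at 23.2, 49.99, 34.3 and 28.5 against 5.504, 7.70 and 15.9 (1.98 ± 0.15). The 25% of mesendoderm genes lower and the 27.3% of trophectoderm genes higher were near the shares over all genes tested, 30% lower and 30.4% higher. 2-cell-like genes had 1 and 6 of 13 (-1.15), and 1 and 4 with the offset (-0.47), and the median was 0.87 in the netrin-1 WT group and below 0 in the other 3. This median rested on single libraries: it was -0.09 without neo1 MUT replicate 3 and -2.11 without netrin-1 WT replicate 3, and it was nearer 0 by more than 1.5 times without unc5B MUT replicate 3, control replicate 3 or control replicate 1. Hypoxia response genes had 2 and 9 of 18 (-0.45; 0 and 9 with the offset). Among them Bnip3, a mitophagy receptor, had 89.7, 13.8, 28.2 and 86.4 CPM against 82.2, 162 and 266 and lost its call without the unc5B MUT library numbered 3, and Adm, adrenomedullin, had 0.501, 0.242, 0.489 and 1.47 against 5.66, 8.48 and 13.1 (-3.70 ± 0.41).

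Netrin ligands and receptors, the family of the transgene, were not higher: 0 of 11 tested were higher and 6 lower (median -0.79). Ntn1 had a log2 fold change of -2.37 ± 0.30 (edgeR adjusted p = 3.0e-05; the highest over the alternatives was 0.0698), and the within-group differences were -3.84, -1.72, -2.88 and -1.90 in the 4 groups, in the order control, wild type, unc5B MUT, neo1 MUT. Neo1, the receptor neogenin, had 38.6, 40.8, 30.1 and 33.5 CPM against 70.2, 78.4 and 91.7 (-1.15 ± 0.10, adjusted p = 1.3e-06), with no overlap. Unc5b, a netrin dependence receptor, had 23.2, 17.4, 16.4 and 17.5 against 19.5, 25.4 and 31.7 and overlapped (-0.46 ± 0.13), and its call was lost without the neo1 MUT library numbered 3 and its sign was reversed with factors from 1-transcript genes (0.21). Dcc was at or below 1.25 CPM in every library and was not tested.

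Genes used as loading references were not level. Actb, cytoplasmic actin, had 5133, 5705, 9025 and 6555 CPM against 1254, 1473 and 1808 (2.12 ± 0.11, 1.41 with the offset), and Gapdh, of glycolysis, 5399, 4736, 4776 and 4919 against 2114, 2358 and 3371 (0.98 ± 0.09, 0.27). Hsp90ab1, a cytosolic chaperone, had 12745, 14018, 15184 and 15023 against 4350.5, 4581 and 4812 (1.63 ± 0.06). Among lists of basic cell machinery, the proteasome had 18 higher and 4 lower of 31 (median 0.29), mitochondrial ribosomal proteins 27 and 8 of 56 (0.29), the nuclear-encoded respiratory chain 41 and 14 of 74 (0.27), and DNA replication genes 15 and 5 of 30 (0.27). With the offset the 4 medians were 0.38, 0.46, 0.44 and 0.23. Mcm2, a helicase subunit, had 1827, 2445, 2474 and 2144 CPM against 386, 410.5 and 479.6 (2.39 ± 0.09). KRAB zinc finger genes were lower in 180 and higher in 45 of 356 (-0.47), and in 106 and 64 with the offset (-0.18). Olfactory receptors were lower in 91 and higher in 34 of 220 (-0.65), but with the offset more were higher, 60, than lower, 48 (-0.16). Glycolysis genes had 8 higher and 5 lower of 21 (0.25), and 4 and 7 with the offset (-0.25).

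**Figure D5:**
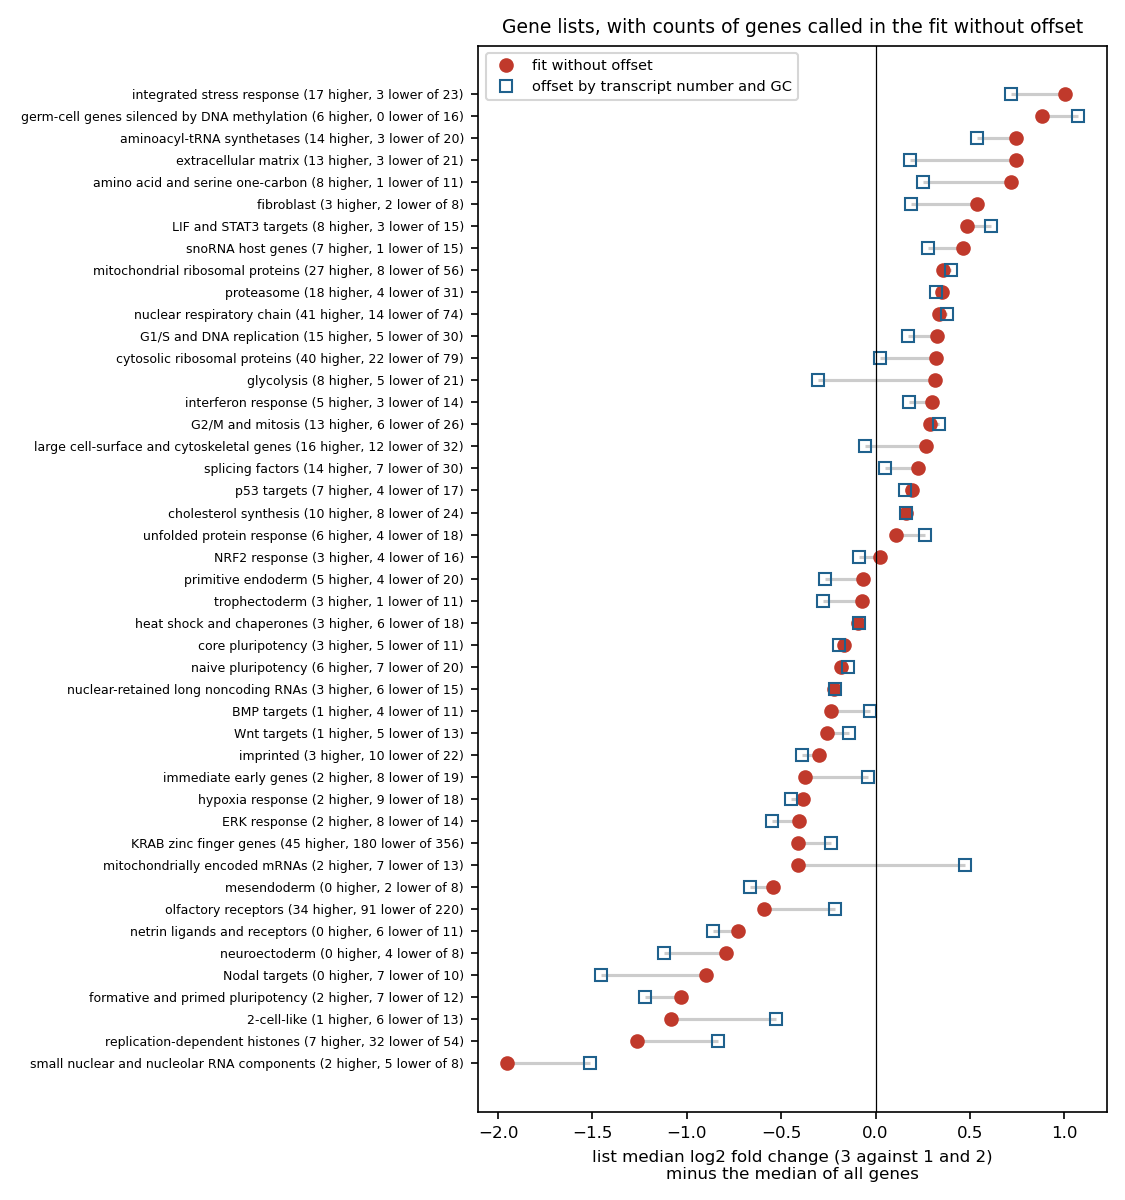
Points give the median log2 fold change of each gene list less the median of all genes (-0.06), for lists with at least 8 members tested, without and with the offset by transcript number and GC content. Amino acid, LIF and germ-cell lists stand to the right and Nodal, formative and histone lists to the left in both fits, while mitochondrially encoded mRNAs, glycolysis, NRF2 response and large cell-surface genes change side. For mitochondrially encoded mRNAs the change follows from an offset estimated on nuclear genes.

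Tcf25, a factor of ribosome quality control, was among the protein-coding genes with the largest separated differences upward. It had 2765, 2658, 2973 and 2740.5 CPM against 166, 181 and 201 (3.93 ± 0.08, adjusted p = 4.6e-12), so that the 2 sets were far apart and the spread within each was narrow. Aacs, acetoacetyl-CoA synthetase, had 705, 474, 564 and 445 CPM against 20.5, 29.3 and 37.3 (4.20 ± 0.10), and Arhgef40, a guanine nucleotide exchange factor, 75.04, 132, 149.7 and 105 against 3.06, 4.19 and 6.22 (4.67 ± 0.13). The other 9 higher genes under the rule were Rnaset2b, Cd59b, Prrt2, Dalrd3, Zdhhc2, Socs3, Glb1l, Arhgef4 and Zfp523, with log2 fold changes from 3.89 to 6.62. Rnaset2b shares 57.2% of its 50-base words with another gene and is uncertain for that reason, as is Prrt2 at 84.4%.

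Besides the histone genes, Lefty2 and Rpl17, the lower genes under the rule included Nnt, Aass, Btg3, Lsm7, Zmat4 and G2e3, with log2 fold changes from -3.31 to -2.36. Nnt (ENSMUSG00000025453), the mitochondrial transhydrogenase, which shares 46.9% of its 50-base words with another gene, had 5.29, 1.31, 7.12 and 4.30 CPM against 36.2, 38.2 and 68.3 (-3.31 ± 0.33). A second entry with the symbol Nnt (ENSMUSG00000116207) went the other way, with 11.99 ± 4.09 CPM (SD, n = 4) in the number 3 libraries against 1.23 ± 2.71 (SD, n = 8) (4.69 ± 0.99), so the direction of Nnt as a whole is uncertain. Aass, of lysine breakdown, had 8.07, 8.76, 15.5 and 7.91 against 25.8, 77.3 and 154 (-3.01 ± 0.33), and Lsm7, of the Sm-like ring that binds U6, 9.69, 10.9, 13.4 and 10.2 against 54.5, 73.0 and 102 (-2.76 ± 0.17). Btg3, an antiproliferative protein, had 0.501, 4.60, 7.83 and 6.23 against 22.5, 27.9 and 46.0 (-2.78 ± 0.43), with the control library lowest. Outside coding genes, Gm10925, an unprocessed pseudogene that shares its sequence with mt-Atp6, at chr1:24613974-24614651 (minus strand), had 0.111, 4.55, 4.13 and 0.105 CPM against 187, 365 and 989 (-7.94 ± 0.57), and the sum of the pair differed by -0.46 ± 0.12.

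Whether the number 3 difference varied between groups could be tested only weakly, with 1 number 3 library per group. A small count of calls does not show that few genes vary, and the count depended strongly on the method, as given in the closing section. The test of the group-by-number interaction passed 6 genes (0.0272%), and 2534 (11.5%) had an unadjusted p under 0.05. Sap18, a subunit of splicing and deacetylase complexes, had 82.5, 5.42, 5.87 and 7.33 CPM in the number 3 libraries and 9.98, 12.6 and 16.6 in the others, so that only the control library was high. Cphx3, a homeobox gene with near-identical copies, had 0, 0.145, 24.6 and 0 against 16.7, 50.4 and 75.3, high in the unc5B MUT library only. Rps16-ps2, a ribosomal protein pseudogene that shares all its 50-base words with other genes, was at 0, 175, 213 and 228 against 258, 388 and 498, and at 0 in the control library. The noncoding B230334C09Rik was at 71.6, 43.8, 0.0544 and 0 against 0.0240, 0.0751 and 0.153, high in the control and netrin-1 WT libraries. Gm21761, a coding gene with near-identical copies, was at 0.668, 26.4, 3.26 and 1.57 against 2.68, 5.42 and 9.67, with netrin-1 WT highest. The sixth gene had a mean under 5 CPM. The count rests on single libraries, since each group has 1 library numbered 3, and it ranged from 0 to 31 when 1 library of numbers 1 and 2 was left out, with 23 genes without neo1 MUT replicate 1 and 31 without neo1 MUT replicate 2.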

How the data were processed

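RNA-seq was measured in 12 libraries of CGR8 cells. The authors deposited 1 table of estimated counts per gene, which are not whole numbers; the submitters' processing notes name FastQC 0.11.5, STAR 2.5.2b, Bowtie2, Bowtie, DESeq2 and R 3.3.2, and the role of each, the counting program and the library type are not given in the sources used here. Expected counts were assumed to be whole when the tests were planned, and were rounded for the tests. Of 52661 genes, 52566 matched GENCODE M21 (GRCm38), and 22061 passed edgeR's filter on low counts. Number 3 was tested against the mean of numbers 1 and 2 with edgeR 4.0.16 (R 4.3.3, quasi-likelihood, TMM factors, group as block), with p-values adjusted over all genes tested by Benjamini-Hochberg. limma 3.58.1 and DESeq2 1.42.0 were alternatives. The procedure was tested on simulated counts in which only a small part of the genes, all well expressed, was changed. That test does not cover a difference as broad as the one in these data. Class shares were compared by an exact permutation test over 81 arrangements within groups. Gene families join genes that share at least 50% of the 50-base words of the smaller gene. Depth was 22256195 to 59735737 counts per library. The members and gene lists were chosen with earlier results of these data known. The offset, the 1-transcript scaling, the summed families and the transcript-number bins were chosen after seeing the data.

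Genes named by rule were the 12 protein-coding genes each way with the largest difference, at 20 CPM or more and without overlap, 5 each way of other classes at 5 CPM or more, up to 4 of the most abundant members of each of 47 lists, 9 fixed genes, and up to 5 genes whose difference varied between groups. Some items that the rule names are not reported here.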

Additional observations from a re-analysis of the deposited data

Results flagged for a closer look

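Among the 8 libraries of numbers 1 and 2, the total of unc5B MUT replicate 1, 59735737 counts, lay far above the next. Among the 4 number 3 libraries, netrin-1 WT replicate 3 stood apart in 3 measures: 29599 genes above 0, the most of the 4, 20.6% of counts in the 100 most abundant genes, the lowest share, and 0.000171% of counts in genes of no main class, the highest. Chance marks about 1 in 20 such groups, and 24 were checked.

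The number 3 difference varied between groups for 5 named genes, by edgeR's quasi-likelihood test of the interaction. The adjusted p was 0.0189 for B230334C09Rik and for Rps16-ps2, 0.0320 for Cphx3, and 0.0483 for Sap18 and for Gm21761. In each case 1 or 2 of the 4 number 3 libraries differed from the rest, and each group has 1 such library.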

How the results depend on the processing

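The 13338 genes called became 13368 with DESeq2, 12931 with limma-voom, 11663 with the offset and 12324 with families summed, and 11723 to 13209 when 1 library was left out. With the number as a replicate block of 3 levels it was 13606, and 7716 of these differed at least 2-fold; the number is itself the comparison, so no pairing was tested. The count at least 2-fold apart, 7697, was 4809 with at least 1 CPM in 4 libraries and 4343 when tested against a fold of 2, and 7203 to 7735 when 1 library was left out. Genes whose difference varied between groups, 6 in number, were 541 with DESeq2, 12 with RLE size factors, 1 with at least 1 CPM in 4 libraries, 0 with limma-voom and at an adjusted p of 0.01, 1969 with no filter, and 0 to 31 with 1 library of numbers 1 and 2 left out; the interaction could not be fitted without a number 3 library. Number 2 against 1, with 0 genes, gave 295 with DESeq2, 5 with no filter and 404 in a fit of those 8 libraries alone. The cause of these changes was not tested. The processed pseudogene share was higher by 1.84 to 1.93 percentage points with 1 library left out; without control replicate 3 (1.88) or unc5B MUT replicate 3 (1.91) its adjusted p no longer passed, with 27 arrangements left, and the same held for the other classes that had passed.

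Without the 100 most abundant genes, differences in share reversed to -1.88 for protein coding, 0.022 for small and ribosomal RNA and 0.021 for mitochondrial mRNA. Abundant mitochondrial mRNAs such as mt-Co1 and mt-Atp6 are among the genes left out, so the value for that class covers only its less abundant members. Relative to the median of all genes, list medians reversed with the offset to 0.47 for mitochondrially encoded mRNAs, -0.056 for large cell-surface and cytoskeletal genes and 0.35 for Y-linked genes, and changed sign to -0.30 for glycolysis and -0.087 for NRF2 response. They reversed against number 2 only to -0.046 for p53 targets, and at 1 CPM to -0.084 for interferon response. Log2 fold changes reversed with the offset for Pou5f1 (-0.14), Etv4 (-0.22), mt-Co1 (0.53), mt-Co3 (0.49) and Mcm7 (-0.39). For the mitochondrial mRNAs, as a list and singly, the offset comes from nuclear genes and the reversal follows from that shift. The next reversals are again of single genes. Log2 fold changes reversed with library totals for Dppa5a (-0.23), Pou5f1 (-0.16), Lamc1 (-0.038) and Mcm7 (-0.15). With factors from 1-transcript genes they reversed for Tfcp2l1 (0.028), Dnmt3b (0.15), mt-Co1 (0.20), mt-Co3 (0.17), Hspd1 (0.12), Hspa5 (0.11) and Unc5b (0.21). Of 143 genes examined singly, 143 kept direction and call under DESeq2 and under RLE size factors. These 2 settings scale almost as the main fit does, with shifts of the median of 0.03 and 0.04. With the offset 128 of the 143 were unchanged, and with factors from 1-transcript genes 120 were.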

Other observations

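Protein-coding genes of chromosome 15 had a median within-group difference of 0.53 between number 3 and the others in the netrin-1 WT group, against 0.03 in control, 0.07 in unc5B MUT and 0.11 in neo1 MUT, over 624 genes. With 1 number 3 library per group this difference was not tested.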
